A study of Homo sapiens with 6 samples.

Results

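The cassette exons of genes named for ribosomal proteins (names opening with RPL or RPS and a digit, RPS6K kinases left out, or RPLP and a digit) and for eukaryotic translation initiation factors (EIF and a digit) form one set here. Chosen by gene name alone, they came to 266 of the 24725 events in the table, in 93 of its 7969 genes: 124 events in 58 genes with a ribosomal protein name and 142 events in 35 genes with an EIF name. The names also took in 4 pseudogenes (RPL13AP5, RPL21P28, RPL23AP82 and RPS14P3), 3 read-through genes and the ribosomal protein-like paralogs RPL7L1 and RPL39L. Events under a pseudogene name need not be exons of the pseudogene. RPL13AP5 events had the same start and end positions as RPL13A events, and the RPS14P3 event the same as events of NBL1 and MINOS1-NBL1. Exon inclusion was measured by RNA-seq of polyadenylated RNA in MDA-MB-231-BrM2a (MDA231-BrM2a), a derivative of the human breast cancer cell line MDA-MB-231, in 2 groups of 3 samples. Control cells carried the empty doxycycline-inducible vector pRetroX-Tight-Pur and were not clonal. RBM47 cells were 1 clonal line, wt#10, with a Flag-tagged wild-type RBM47, an RNA-binding protein, under the same inducible promoter. All 6 samples received 10 ng/ml doxycycline for 3 days. The effect of RBM47 and that of picking a clone cannot be told apart. The labels do not say that replicates were separate cultures. P-values of tests across samples therefore measure the spread between these samples, which may be technical. Fisher's exact test on pooled reads does not see that spread.

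Ribosomes are built from a small and a large subunit, each made of ribosomal RNA and a fixed set of proteins that nearly every cell makes in large amounts. Many ribosomal protein genes carry small nucleolar RNAs (snoRNAs) in their introns and have processed pseudogenes elsewhere in the genome. Initiation factors bring mRNA, initiator tRNA and the small subunit together: eIF2 carries the initiator tRNA, eIF3 binds the small subunit, and the eIF4 factors bind the mRNA cap and unwind the leader.

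A cassette exon is included between its flanking exons or skipped, and its inclusion rate is the fraction of junction reads that include it (reads over both junctions of the included exon, divided by those plus 2 times the skipping reads). A rate of 1 means that no skipping read was counted in that sample. Reads were deposited as totals of a group, and the depth of single samples is unknown. Events whose flanking exons end at the same places can share their skipping reads and are then not independent. Counted within gene names, 132 of the 266 events, in 42 genes, shared their outer ends with another event, and the 266 lay over 191 outer regions. Some regions are listed under more than 1 member name. By position alone, the 265 events with sample rates lay over 187 regions. The build of the table's coordinates is not stated in the sources used here, so event positions follow the table and name no build. Exons were matched to the GENCODE annotation of GRCh37 by gene and outer span, which gave exactly 1 exon for 131 events, several for 65 and none for 70.

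The exons below are those matched to the events described in most detail, read 5′ to 3′ on the strand of the gene from GRCh37, with the exon in capitals and intron in lower case. They are shown because the results turn on whether these stretches stay in the mRNA. In ribosomal protein genes they are the RPL12 exon of 99 bases (chr9:130211889-130211987, minus strand), the RPL3 exon of 96 bases (chr22:39709639-39709734, minus strand), the RPL24 exon of 64 bases (chr3:101401273-101401336, minus strand) and the RPL9 exon of 81 bases (chr4:39456484-39456564, minus strand), all coding. The RPL9 exon is the only one annotated for its span, but 3 RPL9 events share that span, so which of them it belongs to is not known. For RPS24, 3 events share their outer ends and 3 annotated exons have that span. The shortest 2 of these end at the same base, and the one shown has 22 bases (chr10:79799962-79799983, plus strand, untranslated in its annotated transcripts). The other starts 3 bases earlier and has 25 bases.
RPL12: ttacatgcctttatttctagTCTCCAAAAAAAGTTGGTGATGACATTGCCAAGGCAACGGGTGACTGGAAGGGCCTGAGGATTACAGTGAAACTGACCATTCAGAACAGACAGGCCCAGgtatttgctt
RPL3: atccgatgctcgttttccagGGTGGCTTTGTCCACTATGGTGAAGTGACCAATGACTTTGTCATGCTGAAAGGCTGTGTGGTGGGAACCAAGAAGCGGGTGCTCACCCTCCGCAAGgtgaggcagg
RPL24: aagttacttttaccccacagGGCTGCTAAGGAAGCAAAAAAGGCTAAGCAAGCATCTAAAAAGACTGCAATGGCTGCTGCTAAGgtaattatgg
RPL9: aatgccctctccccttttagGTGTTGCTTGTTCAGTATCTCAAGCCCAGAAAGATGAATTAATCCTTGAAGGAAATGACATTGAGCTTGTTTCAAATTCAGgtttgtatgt
RPS24: ttcagTGAGCTGGAGATTGGATCACAGgta
In initiation factor genes the exons are coding and belong to EIF4A2 (169 bases, chr3:186503672-186503840, plus strand), EIF4G3 (111 bases, chr1:21219112-21219222, minus strand), EIF2S2 (57 bases, chr20:32681481-32681537, minus strand) and EIF2AK4 (69 bases, chr15:40324370-40324438, plus strand). The EIF4A2 span is shared with 2 events listed under the snoRNA gene SNORD2.
EIF4A2: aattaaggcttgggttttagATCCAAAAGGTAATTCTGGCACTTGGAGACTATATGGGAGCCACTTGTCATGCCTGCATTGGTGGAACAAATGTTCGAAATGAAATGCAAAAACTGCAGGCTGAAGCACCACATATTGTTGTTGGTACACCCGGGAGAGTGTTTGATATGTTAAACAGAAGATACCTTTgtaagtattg
EIF4G3: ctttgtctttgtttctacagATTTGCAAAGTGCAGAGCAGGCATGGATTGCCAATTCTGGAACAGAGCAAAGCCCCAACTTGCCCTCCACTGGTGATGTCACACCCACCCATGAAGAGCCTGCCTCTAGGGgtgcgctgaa
EIF2S2: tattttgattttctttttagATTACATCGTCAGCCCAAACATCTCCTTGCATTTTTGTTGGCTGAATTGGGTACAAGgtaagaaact
EIF2AK4: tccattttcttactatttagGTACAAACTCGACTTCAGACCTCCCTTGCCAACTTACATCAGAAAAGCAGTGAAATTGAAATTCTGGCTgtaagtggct
All 9 exons are preceded by AG and followed by GT. RPL12, RPL3, RPL9, EIF4G3, EIF2S2 and EIF2AK4 have lengths divisible by 3, and RPL24, RPS24 and EIF4A2 do not. Over the 77 events with 1 matched exon and outer ends of their own, 46.8% of the exons had a length divisible by 3, against 45.4% of the 9695 such events in the whole table.

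These events were read far more deeply than most. Control cells had a median of 1791 reads at each event and RBM47 cells 1465, against 362 and 294 over the whole table, and 58.3% of the events had at least 1000 reads in each group against 20.1%. Most exons were nearly always included, much as over the table. The mean rate over all 6 samples was over 0.9 in 156 events, from 0.1 to 0.9 in 61 and under 0.1 in 48. These were 58.9%, 23% and 18.1%, against 55.7%, 24.3% and 20% of the whole table. For ribosomal protein names alone, 51.2% were over 0.9. The read total in RBM47 cells was a median 0.981 times that in Control for ribosomal protein events, 0.860 times for EIF events and 0.856 times over the table. Among the roles, it was lowest for the eIF4 factors, at 0.682 times, and highest for the events under pseudogene names, at 1.13 times. Depth of the libraries, the number of cells and the RNA per cell cannot be told apart in such totals.

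Of the 266 events, 265 had sample rates. Rates were taken as deposited for 242. The other 23 rows were not aligned in the table, and their rates were taken from another row. That row matched both printed averages for 19 and the RBM47 average alone for 4. In those 4 the Control rates did not average to the printed Control average, so they are less certain. The read totals gave the same direction as the rates for all 23. The read-through gene RPL36A-HNRNPH2 had no rates, and in its read totals the exon was included in 98 reads and skipped in 1 in Control, against 64 and 10 with RBM47 (Fisher's exact test, adjusted p = 0.0238).

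**Figure D1:**
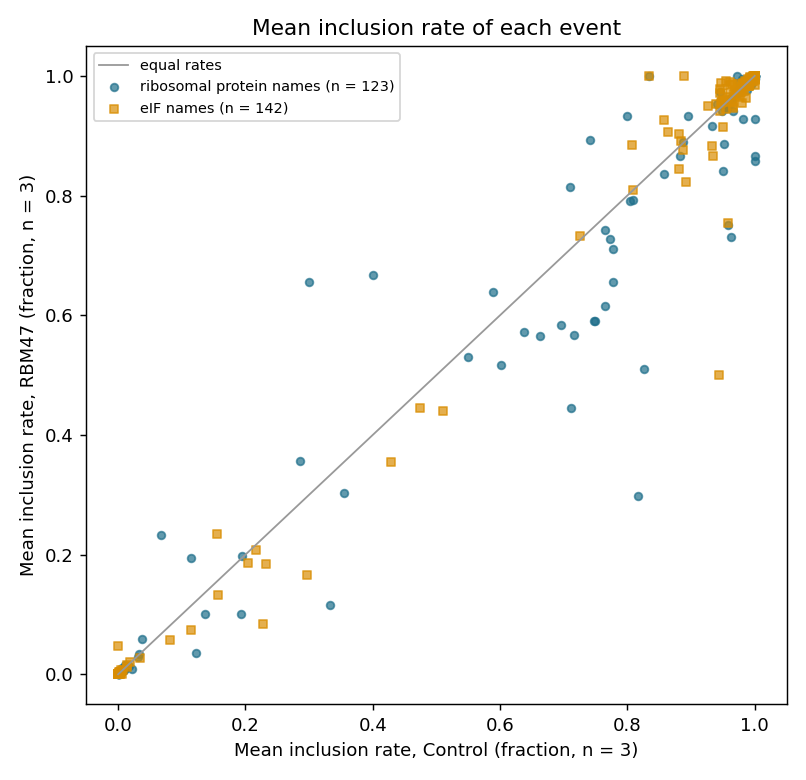
Mean inclusion rate of each event in Control (horizontal axis, fraction) against RBM47 cells (vertical axis, fraction), n = 3 samples each, for 123 ribosomal protein events (circles) and 142 EIF events (squares). Points gather at both ends of the line of equal rates, and the points farthest below it belong to RPL7L1 and EIF3F.

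Inclusion in these genes differed little between the groups. The median difference (RBM47 minus Control) was -0.000599 over all members, -0.00151 for ribosomal protein names and 0 for EIF names, against 0 over the table. The ribosomal protein events leaned to lower rates in RBM47 cells: 80 of 123 were lower and 38 higher (65.0% and 30.9%), against 42.7% and 41.9% of all events. With events of the same outer ends counted once by their median, 53 of 82 ribosomal protein regions were lower and 25 higher, against 42.1% and 41.8% over the table. Of the 142 EIF events, 70 were lower and 55 higher. These are counts with no test.

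Under the study's criteria (a difference of at least 0.2 with an unadjusted Fisher p of at most 0.05), 4 member events were lower with RBM47 (RPL7L1 in 2 events, RPL12 and RPL10) and 2 were higher (RPL9 in 2 events). Among all events of the table, 0.793% were lower and 0.615% higher by this rule, so 4 and 2 of 265 are 1.51% and 0.755%. Here and below, the rule was applied to differences of the sample rates used here, not to the printed differences. The events that pass it need not be those that the study itself called. The study reported fewer exons in both directions than were found here, and the reason was not tested. All 6 member events were in genes with a ribosomal protein name, and 4 of the 6, the lower ones, were in re-matched rows. These 4 were matched by the RBM47 average alone, so their Control rates did not average to the printed Control average. In 2 of them the printed difference did not have the direction of the read totals. Among members with a Fisher p of at most 0.05, the smallest difference inside the limit was 0.207 and the largest outside it 0.158 in size. With Fisher p adjusted over all events and no minimum difference, 16 member events were lower and 4 higher, against 2.71% and 2.61% of the table. Of these, 13 lower and 1 higher were ribosomal protein events (10.5% and 0.806% of 124). The 13 include 3 RPLP0, 2 RPL7L1 and 2 RPS24 events that share outer ends within their gene, so they are not 13 independent events. Fisher's test pools the samples, and 8 of the 20 events differed by under 0.05. The test calls smaller differences in deeper events, and ribosomal protein events had a median of 1991.5 reads in Control against 362 over the table. Among events of at least 1000 reads in each group with a mean rate under 0.1 or over 0.9, it called 4.76% of members against 9.49% of the table.

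limma (arcsine square root of the rates, p adjusted over all 6000 events with a mean rate of 0.1 to 0.9) asks whether a difference exceeds the spread between samples. Of the 61 members tested, 1 was lower by at least 0.2, in RPL7L1, and 0 were higher, against 0.783% lower and 0.75% higher of all events tested. Without the minimum difference, RPS24 was added to make 2 lower and 0 higher, against 1.08% and 1.15%. At an unadjusted limma p under 0.05 there were 19 of 61 members, against 721 of 6000 events. Some of the 61 share outer ends, such as those of RPLP0, RPL7L1 and RPL9, so the 19 need not be independent. The rates of the 3 Control and 3 RBM47 samples did not overlap in 17 members lower and 9 higher, which compares with 5.25% and 4.68% of the table. RBM47 replicate 2 stood apart over the table, with 14.8% of its intermediate rates at 0 or at 1, where each other sample had 6.1% to 7.63%.

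**Figure D2:**
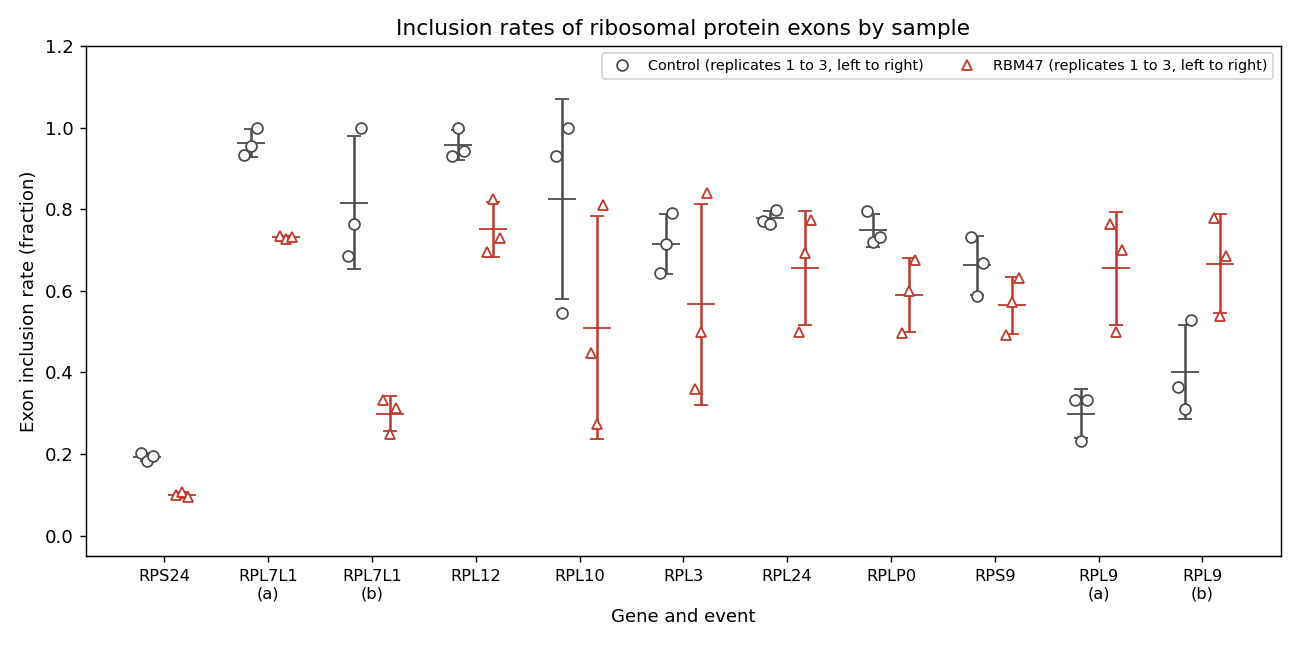
Inclusion rate (fraction, vertical axis) of 11 ribosomal protein events in each sample, with Control as circles and RBM47 as triangles; the bar is the mean and the whiskers the SD of 3 samples. RPS24 and RPL7L1 show groups that do not overlap with little spread among the RBM47 samples, while RPL10, RPL3 and RPL24 overlap.

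RPS24, a protein of the small subunit, had the lowest limma adjusted p of the 187 members tested. Its event at 79466957 to 79470459 on chromosome 10 had rates of 0.203, 0.183 and 0.195 in Control and 0.0991, 0.107 and 0.0939 in RBM47 cells. All 3 RBM47 samples lay below all 3 Control samples, and the spread within each group was small. The mean went from 0.194 ± 0.01 to 0.1 ± 0.00677 (SD, n = 3), a difference of -0.0934 (limma adjusted p = 0.0124, Fisher's exact test adjusted p = 1.25e-133). Including reads were 3885 and 2610, and skipping reads 7047 and 9873, in Control and RBM47 cells. Leaving out any 1 Control replicate or RBM47 replicate 1 took the limma adjusted p to between 0.0516 and 0.0842, and a fit without a variance trend to 0.286. Another RPS24 event with the same outer ends and skipping reads was almost never included, with mean rates of 0.00109 and 0.000497, and its including reads were 129 and 59 (Fisher's exact test adjusted p = 2.38e-11, limma adjusted p = 0.901). The rates of both came from re-matched rows, and the rates printed in the row itself gave -0.0662 for the first. A pair of events that end earlier, at 79469988, had mean rates of 0.00347 to 0.00482 in both groups.

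Other small subunit proteins varied more between samples. RPS9 had 9659 and 12690 reads in Control and RBM47 cells at 59397166 to 59403324 on chromosome 19, with rates of 0.731, 0.587 and 0.669 in Control samples and 0.492, 0.571 and 0.631 in RBM47 samples. The ranges overlapped, and the difference of -0.0974 did not pass limma (adjusted p = 0.424). From the summed reads, which hold including reads beyond those in the rates, the RPS9 difference was -0.0103. A second RPS9 event with the same outer ends had a difference of -0.112 by its rates (limma adjusted p = 0.301). Summed and mean Control rates lay over 0.1 apart in 41 members (15.5%), against 6.18% of the table, so the totals are an uncertain measure of the depth behind such rates. In RPS3A, whose event at 152243472 to 152245237 on chromosome 4 had only 269 and 224 reads, rates were 0.556, 0.680 and 0.9 against 0.412, 0.455 and 0.467. These groups did not overlap, at a limma adjusted p of 0.254 and a Fisher's exact test adjusted p of 0.728. A second RPS3A event with the same outer ends had the rates 0.130, 0.2 and 0.667 in Control and 0.0909, 0.2 and 0.0588 in RBM47 cells, which overlap. Another RPS3A event, at 152241086 to 152243680, had a higher mean in RBM47 cells (difference 0.167), with rates of 0.5, 1.00 and 1.00 in Control and 1.00 in every RBM47 sample, on 1 skipping read in Control and 0 in RBM47 cells. RPS10 had a higher mean in RBM47 cells by its rates (0.2, 0 and 0 in Control, 0.333, 0.2 and 0.167 in RBM47 cells), while its summed reads gave -0.0447, so its direction depended on the measure. RPS15A, RPS18 (both events) and the RPS3 event at 74790331 had mean rates of 0.743 to 0.890 and differences of -0.0221 to 0.00249 (limma adjusted p of 0.871 to 0.989).

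Among large subunit proteins, RPL12 was included less in RBM47 cells. Its rates were 0.930, 1.00 and 0.943 in Control and 0.695, 0.826 and 0.730 in RBM47 cells, so the groups did not overlap. The mean fell from 0.958 ± 0.0373 to 0.75 ± 0.0679 (SD, n = 3), past the study's criteria (Fisher's exact test, unadjusted p = 0.00282) but not past limma (adjusted p = 0.0777). The skipping reads behind it were 3 in Control and 18 in RBM47 cells, of 268 and 302 in all, and the summed reads gave a difference of -0.0904. Its rates came from a row matched by the RBM47 average alone. The difference also came under 0.2 in size without Control replicate 2 (-0.186), RBM47 replicate 1 (-0.180) or RBM47 replicate 3 (-0.197).

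RPL9 was the member gene past the study's criteria with higher inclusion in RBM47 cells. In its event (a) at 39132547 to 39134552 on chromosome 4, rates were 0.333, 0.231 and 0.333 in Control and 0.765, 0.5 and 0.7 in RBM47 cells, and in event (b) 0.364, 0.310 and 0.529 against 0.778, 0.538 and 0.684. In both the groups did not overlap, with differences of 0.356 and 0.266 (limma adjusted p = 0.108 and 0.273). Neither passed the adjusted Fisher's exact test (adjusted p = 0.152 and 0.221, unadjusted p = 0.0134 and 0.0242), and the summed reads gave smaller differences of 0.148 and 0.126. The third event with these outer ends had means of 0.194 and 0.198. All 3 share their skipping reads, 21 in Control and 11 with RBM47, and so are 1 observation of skipping rather than 3.

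RPL10, RPL3 and RPL24 had lower means in RBM47 cells with samples that overlap. RPL10 at 153281337 to 153282446 on chromosome X had rates of 0.931, 0.545 and 1.00 in Control and 0.447, 0.273 and 0.810 in RBM47 cells (difference -0.316, limma adjusted p = 0.402). It met the study's criteria, but with 6 skipping reads among 11530 and 23 among 13886, and the summed reads differed by only -0.00227. Without RBM47 replicate 2 the difference was -0.197, and these rates too came from a row matched by the RBM47 average alone. Another RPL10 event, at 153280872 to 153281475, had a difference of -0.108 (limma adjusted p = 0.398). RPL3 had 0.643, 0.714 and 0.789 in Control and 0.360, 0.5 and 0.840 in RBM47 cells, where RBM47 replicate 3 was the highest of all 6 samples (Fisher's exact test adjusted p = 0.0155, limma adjusted p = 0.694). RPL24 had 0.771, 0.763 and 0.797 against 0.5, 0.693 and 0.774, with 35 and 82 skipping reads (Fisher's exact test adjusted p = 0.0112, limma adjusted p = 0.520). RBM47 replicate 3 was also the RBM47 sample with the highest rate in RPL10 and RPL24. RPL6 had a higher mean in RBM47 cells (0.711 ± 0.0818 and 0.814 ± 0.0531, SD, n = 3) that did not pass limma (adjusted p = 0.357), with 15 skipping reads of 11760 in Control and 8 of 10583 in RBM47 cells. RPL28 had means of 0.772 and 0.728 (limma adjusted p = 0.563).

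RPL7L1, a paralog of RPL7 that acts in ribosome assembly, had the largest fall of any member. Its 3 events at 42955632 to 42959329 on chromosome 6 share outer ends. Event (a) had rates of 0.933, 0.954 and 1.00 in Control and 0.735, 0.727 and 0.732 in RBM47 cells, and event (b) 0.684, 0.765 and 1.00 against 0.333, 0.250 and 0.312. The RBM47 samples lay close together and below every Control sample in both. The difference was -0.231 for event (a) (limma adjusted p = 0.0225) and -0.518 for event (b) (limma adjusted p = 0.0595), on 5 skipping reads in Control and 28 in RBM47 cells. The third event, with 3 and 1 skipping reads, had a difference of 0.133 (limma adjusted p = 0.659). The rates of (a) and (b) came from rows matched by the RBM47 average alone, and their Control rates did not average to the printed Control average. The limma adjusted p of event (a) rose to between 0.0850 and 0.123 without Control replicate 2 or any 1 RBM47 replicate. It rose to 0.143 without a variance trend and to 0.244 with all mean rates in the fit. The totals gave -0.124 and -0.204, the same direction.

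RPLP0 forms the base of the ribosomal stalk, where translation factors bind. Its event at 119119507 to 119121185 on chromosome 12 had rates of 0.795, 0.719 and 0.731 in Control and 0.496, 0.599 and 0.676 in RBM47 cells, without overlap. The means were 0.748 ± 0.0409 and 0.590 ± 0.0903 (SD, n = 3), on 944 and 1416 skipping reads (Fisher's exact test adjusted p = 0.00159, limma adjusted p = 0.123). The other two events with these outer ends gave differences of -0.157 and -0.151, and the summed reads of the first -0.0166. Of the 12 stalk events (RPLP0, RPLP1 and RPLP2), 11 had a lower rate in RBM47 cells (91.7%, against 42.7% of all events), with a median difference of -0.0125. Most of the 12 shared outer ends with another event of RPLP0 or RPLP1, so they are not independent. The 3 RPLP0 events were the stalk events called by the adjusted Fisher test, and limma called 0 of the 11 it tested, where 3 had an unadjusted p under 0.05.

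The read-through gene RPL17-C18orf32 joins the large subunit gene RPL17 to its neighbour. Its event of 1117 and 1080 reads had rates of 0.954, 0.938 and 0.965 in Control and 0.924, 0.843 and 0.889 in RBM47 cells, which did not overlap. The difference was -0.0672 on 26 and 61 skipping reads (Fisher's exact test adjusted p = 0.00261, limma adjusted p = 0.451).

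**Figure D3:**
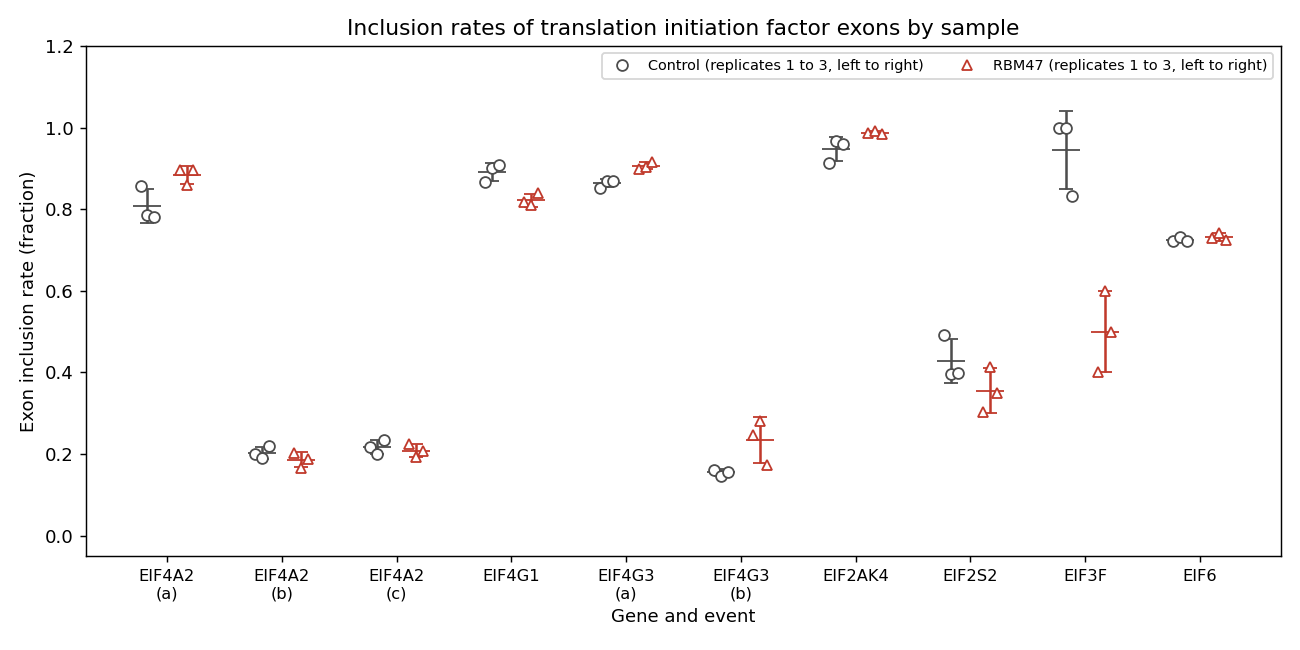
Inclusion rate (fraction, vertical axis) of 10 initiation factor events in each sample, with Control as circles and RBM47 as triangles; the bar is the mean and the whiskers the SD of 3 samples. The means of EIF4A2 (a), both EIF4G3 events and EIF2AK4 sit 0.0410 to 0.0794 higher in RBM47 cells, EIF4G1 sits lower, and EIF6 has means of 0.725 and 0.732.

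EIF4A2 is a helicase that unwinds the mRNA leader. Event (a), at 187985046 to 187986755 on chromosome 3, had rates of 0.856, 0.785 and 0.780 in Control samples and 0.896, 0.859 and 0.897 in RBM47 samples. The groups did not overlap, though 0.856 and 0.859 nearly met. The mean was 0.0768 higher in RBM47 cells (-0.00736 with the rates printed in the row itself, which did not average to its printed averages), with skipping reads going from 132 of 1786 to 40 of 1106 (Fisher's exact test adjusted p = 0.00101, limma adjusted p = 0.252). Events (b) and (c), farther along at 187988285 to 187990363, had rates of 0.166 to 0.234 over both and all samples, and their means differed by -0.0176 and -0.00923 (limma adjusted p = 0.754 and 0.897). The adjusted Fisher test called both lower (adjusted p = 1.97e-05 and 0.000456) although limma did not, and the summed reads differed by -0.0440 and -0.0378.

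EIF4G1 and EIF4G3 encode scaffold proteins that join the cap-binding factor to the helicase. EIF4G1 at 185515087 to 185517978 on chromosome 3 had rates of 0.867, 0.901 and 0.908 in Control samples and 0.817, 0.809 and 0.840 in RBM47 samples. These did not overlap, and the difference was -0.0698 on 88 and 138 skipping reads (Fisher's exact test adjusted p = 0.00474, limma adjusted p = 0.17). A second EIF4G1 event that starts at the same place and ends at 185516302 had means of 0.965 and 0.947, also without overlap (limma adjusted p = 0.630). In EIF4G3 both events without overlap were higher in RBM47 cells: event (a), a re-matched row, had means of 0.864 and 0.906 (limma adjusted p = 0.454, difference 0.0423, or 0.163 with the rates printed in the row itself) and event (b) rates of 0.162, 0.146 and 0.157 against 0.246, 0.282 and 0.174 (limma adjusted p = 0.596). The cap-binding homolog EIF4E2 had means of 0.881 and 0.844 (limma adjusted p = 0.559). EIF4H, an eIF4A cofactor, had means of 0.934 and 0.866 on 3 and 4 skipping reads, and the ranges overlapped. EIF4B, another eIF4A cofactor, had a difference of 0.167 that rested on 1 skipping read in Control and none in RBM47 cells.

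The kinases that phosphorylate eIF2 were mostly near full inclusion. EIF2AK4, the sensor of amino acid shortage also called GCN2, had rates of 0.913, 0.967 and 0.960 in Control and 0.987, 0.992 and 0.984 in RBM47 cells. All RBM47 samples were higher, and skipping reads went from 35 of 1322 to 6 of 949 (difference 0.0410, Fisher's exact test adjusted p = 0.00960). limma was not run on this event, which had a mean rate over 0.9 and under 1000 reads in RBM47 cells. Of the 9 kinase events, 6 were higher and 2 lower (66.7% and 22.2%), against 41.9% and 42.7% of all events. EIF2S2, the beta subunit of eIF2 itself, had rates of 0.491, 0.396 and 0.398 in Control and 0.303, 0.413 and 0.349 in RBM47 cells, which overlapped (difference -0.0731, limma adjusted p = 0.697). Of the 13 events in eIF2 and eIF2-like factors (EIF2A, EIF2D, EIF2S2 and EIF2S3), 10 were lower and 3 higher (76.9% and 23.1%), against 42.7% and 41.9% of all events. Some EIF2A and EIF2S3 events shared outer ends, so the 13 are not independent. The adjusted Fisher test called 0 of 13 (1 at an unadjusted p under 0.05). limma tested 7 and called 0 (0 at an unadjusted p under 0.05).

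The eIF3 subunits, 45 events in 11 genes, split into 23 higher and 19 lower with a median difference of 0.000232. EIF3F had the largest gap of any EIF gene, with rates of 1.00, 1.00 and 0.833 in Control and 0.400, 0.600 and 0.5 in RBM47 cells in 1 of a pair of events with the same outer ends. The groups did not overlap, but 1 and 6 skipping reads of 49 and 53 lay behind it (difference -0.444, limma adjusted p = 0.122, Fisher's exact test adjusted p = 0.545). EIF3K and EIF3M had intermediate events of at least 3395 reads in each group, whose means of 0.884 and 0.890, and 0.887 and 0.876, did not pass limma (adjusted p = 0.929 and 0.837). A rarely included EIF3M exon had mean rates of 0.00265 and 0.00458, and was called higher by the adjusted Fisher test alone (adjusted p = 0.00658, limma adjusted p = 0.782). EIF6, which keeps the subunits apart, gave close values in a deep event with intermediate inclusion: 0.722, 0.731 and 0.723 in Control and 0.728, 0.742 and 0.725 in RBM47 cells (difference 0.00687, limma adjusted p = 0.928). Its second event had means of 0.809 in both groups. The 10 eIF2B events, in EIF2B3 and EIF2B5 of the factor that recharges eIF2, were 5 lower and 3 higher with a median difference of -0.000119.

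**Figure D4:**
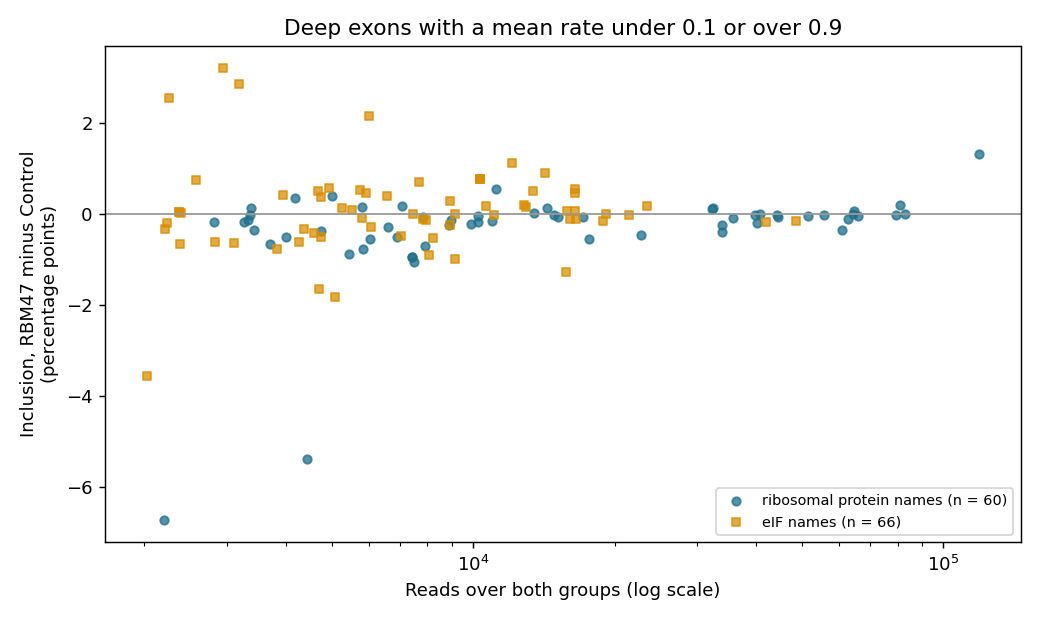
Difference in mean inclusion (RBM47 minus Control, percentage points, vertical axis) of the 126 deep events with a mean rate under 0.1 or over 0.9 against their reads over both groups (log scale), 60 ribosomal protein events as circles and 66 EIF events as squares. Beyond the 2 lowest points, RPL17-C18orf32 and RPL10, 113 of the 126 events lie within 1 percentage point of 0.

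The depth of these genes shows rare skipping. Of the 126 members with at least 1000 reads in each group and a mean rate under 0.1 or over 0.9, 108 were rarely skipped and 18 rarely included. The median skipping of the 108 was 0.796%, 1.54% and 0.986% in the Control samples and 1.29%, 1.19% and 0.913% in the RBM47 samples, so the groups overlapped. The same median over the 3360 such events of the table was 1.09% to 1.23%. In Control, 27 of 47 rarely skipped ribosomal protein exons (57.4%) and 24 of 61 EIF exons (39.3%) were skipped by under 1% (1 minus the mean rate) against 44.5% of those 3360. Over all 126, 113 differed by under 0.01 between the groups and the largest difference was 0.0672 in size. limma called 0 of the 126 in either direction (lowest adjusted p = 0.451), against 0.126% lower and 0.101% higher of the 3964 deep events in the table. At an unadjusted limma p under 0.05 there were 2 of 126, or 1.59%, against 7.95% of the 3964. The adjusted Fisher test, which does not see the spread between samples, called 6 of the 126 (4.76%), against 9.49% of the 3964.

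The deepest event was in RPL27, at 38404291 to 38408325 on chromosome 17, with 61569 and 57552 reads. Its rates were 0.930, 0.951 and 0.941 in Control samples and 0.958, 0.960 and 0.943 in RBM47 samples. The groups overlapped, and the mean was 0.0131 higher in RBM47 cells (Fisher's exact test adjusted p = 2.78e-15, limma adjusted p = 0.630). Another RPL27 exon was skipped in 15 of 33766 and 31 of 29127 reads, with mean rates of 0.999 and 0.998 (limma adjusted p = 0.697). RPL11, a large subunit protein that also binds MDM2, was skipped in 11 of 28596 reads in Control and 4 of 36010 in RBM47 cells, and its RBM47 rates were all higher than its Control rates (limma adjusted p = 0.772). RPL35A, RPL8, RPS25, RPS21 and RPS3, the other genes among the 10 events with most reads, had mean rates of 0.980 or more in both groups, with differences of -0.00354 to 0.00197.

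Some skipping reads were counted again under other names. In the table, 21 events under 15 other gene names had the same outer ends as a member event, and 17 of them were listed under 12 snoRNA genes, in 11 of the member genes. SNORD2 shared the 132 and 40 skipping reads of EIF4A2 event (a), and its 2 events had rates of 0.913 to 0.956 in Control and 0.954 to 0.971 in RBM47 cells. SNORA70 shared the 6 and 23 of RPL10, with differences of -0.281 and -0.244 in its 2 events, and SNORD73A the 15 and 19 of RPS3A, with -0.275 and -0.268. These events share reads with the members and are not independent of them.

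Other genes of the translation machinery, a list of elongation and termination factors, poly(A)-binding proteins, S6 kinases and the mTOR pathway among others, held 130 events in 36 genes. Of these, 75 were higher and 41 lower (57.7% and 31.5%), against 41.9% and 42.7% of all events. Several events of the same gene had equal skipping counts, such as 38 and 22 in more than 1 ABCF3 event. They may share reads, so the 130 are not all independent, and their directions were not counted by region. The median difference was 0.00116, against -0.00151 for ribosomal protein names. Under limma without a minimum difference 2 of 22 tested were lower, against 1.08% of the 6000 events tested, both in EEF1D, a subunit of the exchange factor for the elongation factor eEF1A. Their rates were 0.645, 0.686 and 0.645 in Control and 0.429, 0.455 and 0.552 in RBM47 cells in the first (limma adjusted p = 0.0308), and means of 0.777 and 0.653 in the second (limma adjusted p = 0.0242). The groups did not overlap in either, and both rest on the same 844 and 1318 skipping reads, so they are 1 observation of skipping. The adjusted Fisher test called 3 lower and 4 higher of the 130.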

How the data were processed

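RNA of 3 Control and 3 RBM47 samples was sequenced after polyA selection. The submitters' processing notes name TopHat, while the study's methods name STAR for the cell lines; cassette exon junctions were mapped by the approach of an earlier study. The authors deposited, as fractions, an inclusion rate per sample and the group averages, with including and skipping read counts summed over each group, and columns of their own comparison (difference, odds ratio and an unadjusted Fisher p-value). The deposited p-value served only to check the recomputed test, which gave it within 0.00201 on the log10 scale. Depth per sample is unknown and no intervals are given. In 1392 of 24725 rows (5.63%) the rates did not average to the printed averages. Rates were then taken from the row that matched both averages within 3e-09 (1122 rows) or the RBM47 average alone (253 rows), which left 17 rows without rates. Among members these came to 19, 4 and 1 rows.

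Fisher's exact test (two-sided, scipy 1.17.1) used the read totals, with Benjamini-Hochberg adjustment over all events (statsmodels 0.14.6). limma 3.58.1 (R 4.3.3) was fitted to arcsine square root rates, its variance trend following log2 reads. One fit took events with a mean rate of 0.1 to 0.9, and another the remaining events of 1000 or more reads per group with rates that differ between samples. Calls needed an adjusted p under 0.05. The rate from summed reads halved the including count. In simulated data, 126 of 200 changed events among 6000 were recovered with 3 false calls for the first fit, and 127 of 200 among 3964 with 2 false calls for the second. The planted changes were a shift of 0.3 in the rate for the first fit and a several-fold rise of the rarer form for the second. Recovery of smaller differences was not tested. Reads of processed pseudogenes and near-identical paralogs may be split between genes by the mapping, so counts of such events are uncertain. Named events were those past the study's criteria or called by limma. The 25 deepest of the 54 with a mean rate of 0.1 to 0.9 and at least 100 reads in each group were also named. So were the 10 deepest of all and the 5 largest differences in each direction among events of 100 or more reads per group. Genes whose events share outer ends were given as a count, and only some are named. RPL3, RPL24, RPL17-C18orf32, RPL36A-HNRNPH2, EIF2AK4, EIF2S2, EIF4G3 (b), EIF3F, EEF1D, the snoRNA genes and the second EIF4G1 and EIF3M events were added after their values were seen. The members, the lists and the form of the limma test were chosen with earlier results of these data known.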

Additional observations from a re-analysis of the deposited data

How the results depend on the processing

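Under the study's criteria 4 member events were lower and 2 higher with RBM47. The counts were 2 and 0 with an adjusted Fisher p, and 2 and 0 with rates from the summed reads. A minimum difference of 0.1 gave 10 lower, and one of 0.3 gave 2 lower and 1 higher. Rows aligned as deposited alone gave 0 lower, since the 4 lower events lay in re-matched rows, and the rates in the row as deposited gave 4 higher. RPL7L1 event (b) then reversed, from -0.518 to 0.537, and its read totals gave the first direction. The limma fit to intermediate exons, with 1 lower and 0 higher, gave 2 lower and 1 higher on untransformed rates, 2 lower with no minimum difference, and 0 lower without a variance trend, with all mean rates or with rows aligned as deposited only. Leaving out 1 replicate at a time gave 0 to 2 lower and 0 to 1 higher. The cause was not tested. The fit to deep exons called 0 members under every alternative run, and the adjusted Fisher counts of 16 and 4 stayed within 1.5 times. Over the named events, 345 alternative values kept direction and side of the threshold or moved by less than the replicate SD, 20 were weaker, 18 moved and 1 reversed.

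Replicate numbers did not pair the samples: deviations from the group means of same-numbered samples correlated across 6000 events with r = -0.0198, -0.00294 and 0.0152. With the replicate number as a block, limma called 2 members lower in place of 1 among intermediate exons. Depth limits several of the larger differences, since those of RPL7L1, EIF3F, RPL10 and RPL12 rest on fewer than 10 skipping reads in Control.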
